A study of Rattus norvegicus with 17 samples.

Results

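The neurons described here are Sst and Nppb itch neurons of the rat dorsal root ganglion, chosen as single cells whose somatostatin (Sst) and natriuretic peptide type B (Nppb) transcripts together reached 300 counts for every 1000000 UMIs of the cell (CPM, where a UMI, a unique molecular identifier, is a tag that counts each captured molecule once). Of 830 kept neurons, 95 were members (11.4% ± 6.13 of a batch, SD over 16 batches). Kept means at least 2000 genes with a UMI and at least 20000 UMIs, which held for 830 of 1040 cell columns. The study picked neurons one by one with a mouth pipette from lumbar L4 and L5 ganglia of both sides in male SD rats, which the labels describe as adult, naive animals of 200 g. All samples belong to 1 group, and a sample is a batch of pooled cells, so neurons were compared with other neurons of the same batch. The protocols describe neurons picked under fluorescence 15 min after plating and neurons with neurites picked 72 h after it, and the labels do not say which batch had which, so the time cannot be told apart from the batch. Nothing in the labels says that batches came from separate rats, so p-values measure only the spread between batches, which may be technical.

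Itch begins in small unmyelinated sensory neurons whose cell bodies lie in the dorsal root ganglia and whose endings lie in the skin. In rodents a class of these neurons makes the peptides natriuretic peptide B and somatostatin, which act in the spinal cord dorsal horn, where the first excites and the second disinhibits the neurons that pass itch on. The same class is known for cytokine receptors of the interleukin-6 family, such as the oncostatin M receptor Osmr and its partner Il31ra, which signal through the kinase Jak1.

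The promoters of the genes that define or lead the class are shown because their transcripts were found in the same cells. Each sequence is 250 bases before to 50 bases after the start site annotated by RefSeq in the build GRCr8, which differs from the build of the counts, and is read 5′ to 3′ on the gene's strand. Sst lies at chr11:90461296-90461595 (plus strand), Nppb at chr5:163699758-163700057 (plus strand) and Emp1, an epithelial membrane protein, at chr4:169943980-169944279 (plus strand). Capitals mark matches on either strand to the cyclic AMP response element (CRE, TGACGTCA), the TATA box (TATAAA) or the AP-1 site (TGANTCA).
Sst: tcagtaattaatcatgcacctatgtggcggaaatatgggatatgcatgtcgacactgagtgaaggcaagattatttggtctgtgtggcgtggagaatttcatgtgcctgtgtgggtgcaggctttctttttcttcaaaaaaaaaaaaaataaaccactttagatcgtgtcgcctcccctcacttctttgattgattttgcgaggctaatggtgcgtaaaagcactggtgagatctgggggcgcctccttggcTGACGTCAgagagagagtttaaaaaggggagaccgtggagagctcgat
Nppb: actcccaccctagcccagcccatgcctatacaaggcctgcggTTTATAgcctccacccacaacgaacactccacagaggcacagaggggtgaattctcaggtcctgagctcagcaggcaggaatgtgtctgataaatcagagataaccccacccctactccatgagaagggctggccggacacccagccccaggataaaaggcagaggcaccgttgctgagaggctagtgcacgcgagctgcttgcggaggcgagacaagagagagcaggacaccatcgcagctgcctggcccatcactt
Emp1: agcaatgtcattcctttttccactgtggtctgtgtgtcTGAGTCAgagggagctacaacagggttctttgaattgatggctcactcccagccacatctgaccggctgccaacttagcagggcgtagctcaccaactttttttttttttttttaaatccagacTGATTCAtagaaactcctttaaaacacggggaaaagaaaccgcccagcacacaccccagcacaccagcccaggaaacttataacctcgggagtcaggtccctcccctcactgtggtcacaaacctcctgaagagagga
The Sst window held 1 CRE, starting at base 253 of the 300 printed. The Nppb window held 1 TATA box match, on the opposite strand at base 43, and the Emp1 window held 2 AP-1 matches, at bases 39 and 163. Among all 33469 promoters of that length in the table, 1.83% held the CRE, 14.2% the TATA box and 7.33% the AP-1 site. A match is a run of letters and shows no binding.

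Sst and Nppb set the choice of members, so their levels are given without a test. Over the 95 members the median was 845 CPM for Sst (quartiles 359 and 1426) and 396 CPM for Nppb (quartiles 105 and 927). Over the 735 other kept neurons the medians were 9.26 and 7.30 CPM. Members held 10.8% of all UMIs of kept cells, 87.8% of the Sst UMIs and 80.7% of the Nppb UMIs. Both peptides had a UMI in 93 members, and both reached 100 CPM in 66. Sst was at or above Nppb in 69 members and Nppb was above Sst in 26. On log2 CPM with 10 CPM added, Pearson r of Sst and Nppb was 0.321 over the 95 members and 0.715 over all 830 kept neurons. Both are descriptions of cells that share 16 libraries, and the threshold on the sum itself bears on the value within members. The cells just inside the threshold had 307, 311 and 316 CPM, and those just outside had 296, 288 and 285 CPM.

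**Figure D1:**
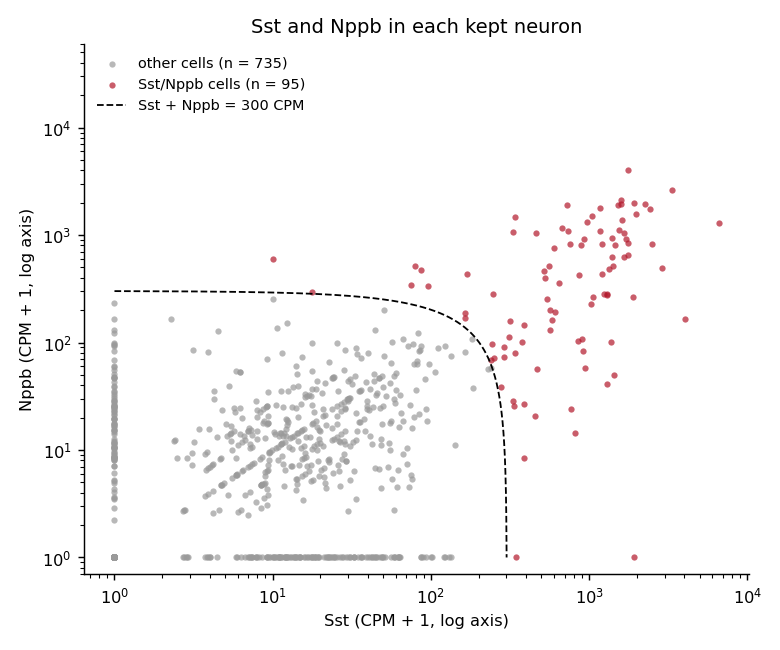
Each point is 1 kept neuron, with Sst on the horizontal and Nppb on the vertical axis (CPM + 1, both log axes). The 95 members (red) lie beyond the dashed line where the sum of both is 300 CPM, and the 735 other neurons (grey) lie inside it, mostly under 100 CPM of each peptide.

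Every batch held members, from 2 to 13 cells, which was 4.94% to 25.0% of a batch's kept neurons. In the summed counts of a batch's members Sst ran from 137 through a median of 929 to 2159 CPM, and Nppb from 20.9 through 578 to 1577 CPM. In the other neurons of the same batches Sst ran from 1.15 through 13.7 to 53.2 CPM and Nppb from 6.88 through 16.5 to 30.0 CPM. The depth of members differed from that of the rest by less than the spread of batches. Their median of log2 UMIs was 0.111 lower than that of the other cells (SD of the batch differences 0.681, lower in 10 of 16 batches, exact two-sided sign-flip permutation test, p = 0.52).

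The label was checked against 4 further markers listed for the class, all chosen with earlier results of these data known: Calb2 (calretinin, a calcium-binding protein), Emp1, Anxa8 (an annexin, a membrane-binding protein) and Tesc (tescalcin, a calcium-binding partner of a sodium-proton exchanger). At 50 CPM or more, 63 of 95 members carried 3 or 4 of them (66.3%), against 4 of 735 other neurons (0.544%). No marker reached that level in 3 members. The match with the label grew with the summed level of the peptides: 6 of 26 members between 300 and 600 CPM carried 3 or 4 markers, 29 of 39 between 600 and 2000 CPM, and 28 of 30 from 2000 CPM up. None of the 26 neurons between 150 and 300 CPM did. These counts describe the members and do not test the name, since the markers were known from these data and the bands use the sum that chose the members.

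**Figure D2:**
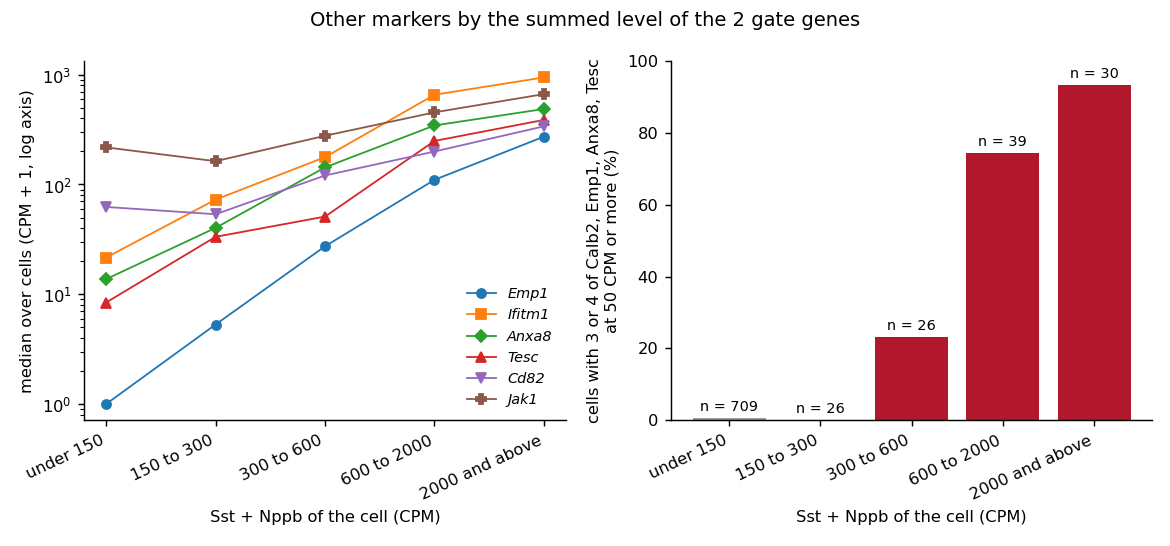
Left, the median CPM + 1 over cells (log axis) of 6 genes in 5 bands of Sst + Nppb; right, the percentage of cells with 3 or 4 of Calb2, Emp1, Anxa8 and Tesc at 50 CPM or more, with the number of cells above each bar and members in red. The share was 0.564% under 150 CPM, 23.1% between 300 and 600, 74.4% between 600 and 2000 and 93.3% above.

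The 3 members of batch 32 stood apart from those of the other batches. Their Sst was 74.2, 85.3 and 169 CPM and their Nppb 341, 469 and 437 CPM, so Nppb led in each. Emp1 and Calb2 had no UMI in any of them, and none carried 3 markers. As a sum they had 1129 CPM of Nefh, the heavy neurofilament of large neurons. Levels of Nefh in other members are not given here, so this value alone does not set batch 32 apart. Values without this batch are given where it moved a result, and every gene tested below kept its direction without it.

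Against all other neurons of their batch, members had 568 genes higher and 829 lower of 10834 tested (edgeR quasi-likelihood test with batch as a block, Benjamini-Hochberg adjusted p under 0.05). That was 12.9% of genes called, 5.24% higher and 7.65% lower. Without batch 32 the counts were 612 and 843. The balance depended on the model: with no batch block it was 686 higher and 510 lower, and with each cell thinned to 20000 UMIs it was 276 and 200. The median log2 fold change over all genes was -0.08. A summed level does not separate fewer expressing cells from less RNA per cell. Shares or counts of cells are given for Calb2, Trpv1 and the itch receptors too sparse for the test. For other genes at low levels, such as P2rx2, Grin3a and Oprm1, these were not separated.

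**Figure D3:**
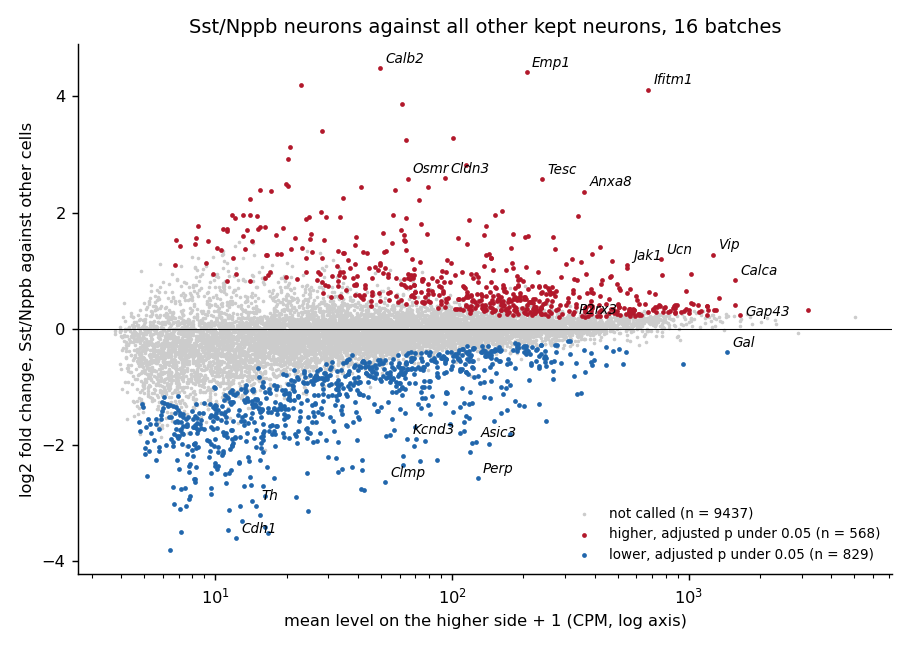
Each point is 1 of 10834 genes, with its mean level on the higher side on the horizontal axis (CPM + 1, log axis) and its log2 fold change between members and all other neurons on the vertical axis. Calb2, Emp1 and Ifitm1 lie above 4, and genes with an adjusted p under 0.05 are red (568 higher) or blue (829 lower).

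Among named genes of at least 50 CPM the higher side was led by Emp1 and Ifitm1. Calb2 had a larger log2 fold change than either, but its mean in members, 48.7 CPM, was under that level. Ifitm1, an interferon-induced membrane protein, ran from 103 through a median of 629 to 1300 CPM over the batch sums of members and from 19.5 through 37.7 to 84.5 CPM in the other neurons. The groups did not overlap, which held for 4 of 10834 genes (0.0369%, the others being Asap2, Resp18 and Scarb1, named after their values were seen), and Ifitm1 was higher in 16 of 16 batches (log2 fold change 4.12, SE 0.16, adjusted p = 1.03e-15). It belongs to a family of near-identical copies, between which the authors' counting could split reads, so its value is uncertain.

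Emp1 ran from 0 through 174 to 774 CPM in members and from 1.79 through 8.08 to 29.0 CPM in the others. The groups overlapped only through the members of batch 32, since the lowest of the other 15 member sums was 42.2 CPM. How many of all genes separate without batch 32 was not counted, so this has no share of all genes beside it. It was higher in 15 of 16 batches (log2 fold change 4.42, SE 0.29, edgeR adjusted p = 9.49e-11).

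Anxa8 ran from 118 through 356 to 685 CPM in members and from 40.2 through 75.1 to 120 CPM in the others, higher in 16 of 16 batches (log2 fold change 2.36, SE 0.17, edgeR adjusted p = 2.62e-10). The lowest member sum lay just under the highest sum of the others. Tesc ran from 11.4 through 245 to 371 CPM against 17.0 through 39.0 to 69.2 CPM (log2 fold change 2.58, SE 0.22, adjusted p = 1.56e-08). Again only batch 32 was low, and without it the lowest member sum, 128 CPM, lay above every sum of the others. The share of all genes that separate without batch 32 was not counted.

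Calb2 was sparse. It ran from 0 through 28.3 to 272 CPM in members and from 0 through 1.74 to 7.42 CPM in the others, and the groups overlapped (log2 fold change 4.49, SE 0.62, edgeR adjusted p = 2.56e-05, higher in 13 of 16 batches). A UMI of Calb2 was found in 55.8% of members (95% exact interval 45.2 to 66.0, for counting error only) and 12.7% of other neurons. The median depths were 158150 and 188943 UMIs. After thinning to 20000 UMIs the shares were 37.9% and 3.81%.

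The 10 genes with the largest rise at 50 CPM or more did not include Calb2. Among them Cyba, a subunit of the NADPH oxidase, was at 60.3 ± 78.8 against 4.03 ± 3.52 CPM (SD, n = 16 batches). Cst12, a cystatin, was at 62.8 ± 44.4 against 9.94 ± 13.4 CPM. Ada, adenosine deaminase, was at 114 ± 121 against 12.7 ± 7.24 CPM. The tight-junction claudin Cldn3 was at 92.0 ± 86.7 against 13.9 ± 5.57 CPM, and the sugar-phosphate transporter Slc37a2 at 71.6 ± 37.0 against 18.5 ± 12.8 CPM. Their log2 fold changes were between 2.22 and 3.88, and each was higher in at least 14 of 16 batches. The SD of Cyba and Ada exceeded the member mean, so single batches carried much of their level.

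**Figure D4:**
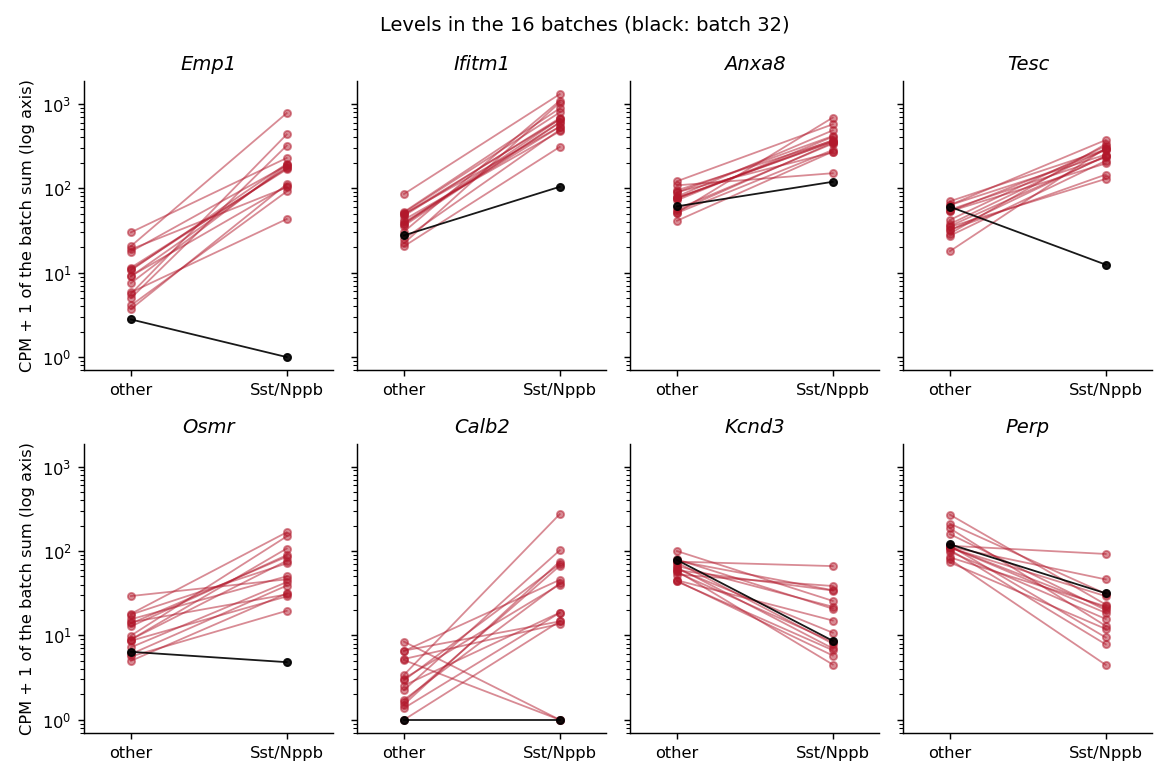
Each line joins the 2 sums of 1 batch, other neurons on the left and members on the right, as CPM + 1 on a log axis, for 6 genes that were higher and 2 that were lower in members. All lines but that of batch 32 (black) rise for Emp1, Tesc and Osmr, and all 16 rise for Ifitm1 and Anxa8 and fall for Kcnd3 and Perp.

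Receptors of itch and cytokine signals and their kinases moved in both directions: of 25 tested of 54 listed, 5 were higher and 3 lower (32.0% called, beside 12.9% of all genes). Osmr was at 63.8 ± 45.6 against 10.7 ± 6.33 CPM, higher in 15 of 16 batches (log2 fold change 2.58, SE 0.25, edgeR adjusted p = 1.14e-07). Jak1, the kinase bound by these receptors, ran from 114 through 525 to 869 CPM in members and from 197 through 272 to 343 CPM in the others (log2 fold change 1.09, SE 0.13, adjusted p = 3.43e-06). Without batch 32 the lowest member sum of Jak1 was 419 CPM, above every sum of the others, though the share of all genes that separate without it was not counted. The serotonin receptor Htr2b (log2 fold change 1.76) and the interleukin-6 receptor Il6r (1.71) rose too. Lower were the shared signalling chain Il6st (-0.51, adjusted p = 0.0182), the phospholipase Plcb4 (-1.47) and the bradykinin receptor Bdkrb2 (-1.40, adjusted p = 0.015, and 0.0557 with no batch block). The call of Il6st was lost with cells high in glial, blood or fibroblast genes left out (adjusted p = 0.0521), with at least 3 cells per sum (0.0547) and in thinned cells (0.506).

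Other receptors known from itch neurons were too sparse for the test. Il31ra had a UMI in 20 of 95 members, spread over 10 batches, and in 11 of 735 other neurons (21.1%, 95% exact interval 13.4 to 30.6, against 1.50%, interval 0.749 to 2.66, at median depths of 158150 and 188943 UMIs). After thinning the shares were 7.37% and 0.408%. In the fit with no filter on low counts Il31ra was higher in members (log2 fold change 4.29, SE 0.85, edgeR adjusted p = 0.00146). Htr1f, a serotonin receptor, had a UMI in 1 member and 47 other neurons and was lower in the same fit (log2 fold change -3.35, SE 0.84, adjusted p = 0.0101). The leukotriene receptor Cysltr2 had none in members, which allows a share of cells with a UMI, not of cells expressing it, of up to 3.16%, and a UMI in 16 other neurons. The itch receptor Mrgprx3 had a UMI in 11 members and 112 other neurons, and Mrgprd, the marker of a non-peptidergic class, in 0 and 6. S1pr1, the lipid receptor, was found in 2 members and 34 other neurons. In the fit with no filter, Cysltr2, Mrgprx3, Mrgprd, S1pr1 and the somatostatin receptor Sstr2 did not pass (edgeR adjusted p between 0.0759 and 0.782). Nts, neurotensin, a peptide of itch neurons in mice, was lower in members (17.6 ± 36.2 against 28.2 ± 13.1 CPM, log2 fold change -1.91, SE 0.50, adjusted p = 0.0121), a call lost with no batch block (adjusted p = 0.649).

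Neuropeptides divided: of 19 tested of 29 listed, leaving out Sst and Nppb, 5 were higher and 6 lower. That was 57.9% called, beside 12.9% of all genes, with a median log2 fold change of -0.40. Vip, vasoactive intestinal peptide, was at 1267 ± 505 against 528 ± 156 CPM, higher in 15 of 16 batches (log2 fold change 1.27, SE 0.18, edgeR adjusted p = 2.21e-05). Ucn, urocortin, was at 762 ± 269 against 337 ± 80.7 CPM (log2 fold change 1.20, SE 0.18). Calca, which encodes the pain peptide CGRP, was at 1569 ± 497 against 922 ± 231 CPM, higher in 14 of 16 batches (0.83, SE 0.14, adjusted p = 0.000215). Tac1, the substance P precursor (0.90), and Adcyap1, which encodes PACAP (0.71), rose as well. Lower were Crh (-2.42), Cck (-1.02), Cartpt (-1.37) and Gal (-0.40). These 4 calls were lost with no batch block (adjusted p = 0.1, 0.0789, 0.657 and 0.459). That of Gal was also lost when any 1 of batches 23, 26, 28-3, 30 or 31 was left out (adjusted p between 0.0504 and 0.065), and those of Gal and Cartpt with the threshold at 150 CPM (0.0724 and 0.106) and in thinned cells (0.157 and 0.484). The call of Gal was lost with at least 3 cells per sum as well (0.0758).

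Among granins and enzymes that pack and process peptides, 4 of 16 tested were higher and 3 lower (43.8% called, beside 12.9% of all genes). Scg2, a granin of dense-core vesicles, was at 546 ± 316 against 256 ± 72.8 CPM (log2 fold change 1.05, SE 0.15) and Vgf, another granin-like precursor, at 549 ± 241 against 361 ± 61.7 CPM (0.62, SE 0.12). Pam, the enzyme that amidates peptides, was lower in 16 of 16 batches (171 ± 68.4 against 260 ± 31.0 CPM, -0.57, edgeR adjusted p = 0.00189), as was Chgb in 15 (-0.90).

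Ion channels for sodium, potassium and cyclic-nucleotide-gated current held 18 lower and 5 higher of 42 tested (54.8% called, beside 12.9% of all genes), with a median log2 fold change of -0.59 against -0.08 over all genes. Kcnd3, a fast inactivating potassium channel, ran from 3.51 through 11.9 to 65.1 CPM in members and from 42.4 through 61.5 to 98.6 CPM in the others, lower in 16 of 16 batches though the groups overlapped (log2 fold change -1.90, SE 0.24, edgeR adjusted p = 5.21e-06). Its partner subunits Kcnip1 (-1.61) and Kcnip4 (-2.26) were lower in 16 of 16 batches too. The leak channel Kcnk2 (-2.88) and the M-current channel Kcnq5 (-1.16) fell. Rising members were the sodium channel Scn10a (0.81, adjusted p = 0.00994), which carries most of the action potential of nociceptors, its accessory subunit Scn4b (0.72) and the potassium channels Kcna1 (0.81) and Kcns3 (1.07). Scn9a did not pass (-0.26, adjusted p = 0.281).

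Of 21 tested sensory channels of the TRP, ASIC, Piezo and purinergic families, 1 was higher and 4 lower (23.8% called, beside 12.9% of all genes). The member that rose was P2rx2, the partner subunit of P2rx3 in ATP-gated channels (19.4 ± 17.1 against 4.41 ± 4.12 CPM, log2 fold change 2.45, SE 0.52, edgeR adjusted p = 0.0022). P2rx3 itself was at 323 ± 99.1 against 305 ± 68.2 CPM and did not pass (0.17, adjusted p = 0.417). Asic3, the acid-sensing channel, fell (39.0 ± 37.6 against 125 ± 55.3 CPM, -1.95, adjusted p = 4.26e-05). Trpa1, the irritant channel, was at 12.1 ± 10.5 against 7.42 ± 4.33 CPM (0.84, adjusted p = 0.245), and Trpv1, the capsaicin receptor, had a UMI in 33.7% of members and 31.4% of other neurons.

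Calcium channels and calcium-binding proteins held 7 higher and 10 lower of 33 tested (51.5% called, beside 12.9% of all genes). Calb2 and Tesc lead the 7, with the channel subunit Cacnb1 (0.60) among them, whereas the related calbindin Calb1 fell (49.1 ± 58.4 against 117 ± 42.8 CPM, -1.53, SE 0.28, edgeR adjusted p = 0.000484) together with the calcium pump Atp2b4 (-1.30). Annexins also went separate ways, with 3 of 9 tested higher and 2 lower (55.6% called, beside 12.9% of all genes). Beside Anxa8, Anxa3 (0.64) and Anxa11 (0.34) were higher, calls that were lost with the threshold at 600 CPM (adjusted p = 0.14 and 0.0772), and Anxa4 was lower (-1.12).

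Epithelial membrane and adhesion proteins, a list that holds Emp1 and Cldn3, had 9 higher and 7 lower of 31 tested. That was 51.6% called, beside 12.9% of all genes. Cd82, a tetraspanin, was higher in 16 of 16 batches (271 ± 116 against 107 ± 27.2 CPM, log2 fold change 1.38, SE 0.12, edgeR adjusted p = 9.85e-09), and Dsp, the desmosomal plaque protein, rose by less (0.76). Perp, another desmosomal protein, ran from 3.47 through 19.5 to 91.1 CPM in members and from 72.1 through 111 to 268 CPM in the others, lower in 16 of 16 batches (-2.58, SE 0.25, adjusted p = 1.04e-07). Cdh1, E-cadherin (-3.61), and the tetraspanin Cd9 (-1.59) were lower too.

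Of 19 growth factor receptors tested 0 were higher and 4 lower (21.1% called, beside 12.9% of all genes, of which 5.24% were higher). Among them, Gfra2 (log2 fold change -2.90, SE 0.38, edgeR adjusted p = 1.17e-05) and Gfra3 (-1.12), co-receptors of the neurturin and artemin signals, fell in 16 and 15 of 16 batches, and the stem cell factor receptor Kit in 13 (-1.30, adjusted p = 0.0193, and 0.124 with no batch block). Axon guidance receptors had 0 higher and 10 lower of 21 tested (47.6% called). The adhesion molecule Cntn1 was lower in 16 of 16 batches (-2.01). Transcription factors of sensory neuron types had 2 higher and 12 lower of 43 tested (32.6% called). The lower ones included Isl1 (-1.08), Foxp1 (-1.27) and Cux1 (-1.68).

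Among transmitter receptors, Grin3a, a subunit of NMDA-type glutamate receptors, rose (19.3 ± 18.2 against 2.97 ± 2.41 CPM, log2 fold change 2.92, SE 0.48, edgeR adjusted p = 0.000147), as 1 of 20 tested, while 6 fell. The kainate receptor Grik1 (-2.76) and the nicotinic receptor Chrna3 (-2.37) were among those. Of the transmitter receptors tested 35.0% were called, beside 12.9% of all genes. The synaptic vesicle list had 2 higher and 2 lower of 27 tested, a share (14.8%) near that of all genes (12.9%), with the calcium sensor Syt2 (1.51) and the glutamate transporter Slc17a6 (0.56) higher and Syngr1 (-2.02) lower. Oprm1, the mu opioid receptor, was low in both groups (1.27 ± 1.91 against 4.76 ± 1.69 CPM, -1.73, adjusted p = 0.0183), a call lost with the threshold at 150 CPM (0.0965) and with at least 3 cells per sum (0.0517).

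Of the 60 tested genes known from axon regeneration, 12 were higher and 7 lower (31.7% called, beside 12.9% of all genes), with a median log2 fold change of 0.12. This list shares Vip, Adcyap1, Gal, Nts, Crh and Npy with the neuropeptides. Plat, tissue plasminogen activator, was higher in 16 of 16 batches (178 ± 54.6 against 85.8 ± 23.2 CPM, 1.13, SE 0.12, edgeR adjusted p = 2.53e-07) and the protease inhibitor Serpinb1a in 14 (0.45). Sprr1a, a protein of injured axons, was at 680 ± 295 against 425 ± 82.2 CPM (0.63, SE 0.19, adjusted p = 0.0266). That call was lost when any 1 of batches 26, 30, 32, 33 or 35 was left out (adjusted p between 0.0518 and 0.0599), in DESeq2 (0.0573) and with the threshold at 150 or 600 CPM (0.0613 and 0.0901). The growth cone protein Gap43 (1636 ± 418 against 1564 ± 145 CPM, adjusted p = 0.428) and the injury factor Atf3 (745 ± 214 against 691 ± 80.4 CPM, adjusted p = 0.28) did not pass. Of 41 growth cone and cytoskeleton genes 0 were higher and 7 lower (17.1% called, beside 12.9% of all genes), among them the microtubule proteins Stmn1 (612 ± 221 against 945 ± 106 CPM, -0.61) and Mapt, which encodes tau (-0.59, lower in 16 of 16 batches).

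Among the genes that led the lower side were Clmp, an adhesion molecule (8.87 ± 7.53 against 51.2 ± 24.1 CPM), Perp, the protease inhibitor genes Stfa2l1 and Ctla2a, Ptn, which encodes the growth factor pleiotrophin (18.7 ± 13.5 against 85.3 ± 28.5 CPM), and Pdpn, podoplanin. Cntn1, the sodium pump subunit Atp1b1 and Phactr2 were among them too. Their log2 fold changes ran from -2.64 to -1.96, and each was lower in at least 15 of 16 batches. Stfa2l1 and Ctla2a have near copies in the genome, so reads may have been split and their values are uncertain.

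Markers of other cells moved with the members in part. Over all genes tested 12.9% were called, 5.24% higher and 7.65% lower, and several marker lists held few tested genes. Of the list for C-low-threshold neurons 4 of 5 tested were lower (Th, tyrosine hydroxylase, -3.04, and Cdh9, -2.48), and of that for non-peptidergic neurons 6 of 12. Of the peptidergic list 5 of 12 tested were higher and 6 lower, of the large neurofilament list 4 of 10 were lower, and of the fibroblast list 2 of 3. None of 8 pan-neuronal markers was called against all other neurons. Against the Calca cells described below, 2 of 8 were lower (25.0% called, beside 13.7% of all genes). Of the glial list 3 of 10 tested were lower, and its summed level ran from 175 to 1033 CPM in members and from 314 to 871 CPM in the others, with Kcnj10 at 0 in the others. Apoe, the glial lipid carrier, was at 25.1 ± 30.0 against 47.1 ± 28.3 CPM (-1.41, adjusted p = 0.0107), a call lost with no batch block (0.177), in thinned cells (0.225) and with cells high in glial, blood or fibroblast genes left out (0.342). The immune list ran from 3.49 to 212 CPM in members and from 11.9 to 55.1 CPM in the others, with Csf1r higher (1.53, adjusted p = 0.0131) and Tyrobp and Cd3e at 0 in members. The part of these cells in the rise of Cyba and Ifitm1 was not tested. With the tenth of cells highest in glial, blood or fibroblast genes left out, 547 genes were higher and 740 lower.

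Members were next set against the other neurons with P2rx3, the ATP-gated channel of non-peptidergic nociceptors, at 200 CPM or more (416 cells). P2rx3 chose those cells and is not tested, and 62 of the 95 members passed the same level. Members had 484 genes higher and 632 lower of 10596 tested (10.5% called, 4.57% higher and 5.96% lower), or 598 and 427 with no batch block and 219 and 159 in thinned cells. Emp1 (10.4 ± 8.84 CPM in P2rx3 cells, log2 fold change 4.40, SE 0.31, edgeR adjusted p = 3.97e-10), Ifitm1 (4.21), Cyba (4.84), Calb2 (4.46), Tesc (2.53) and Osmr (2.29) were higher. Anxa8 was higher too, and stood at 107 ± 29.2 CPM in P2rx3 cells (1.80, SE 0.14). Adcy2, an adenylate cyclase, was at 77.5 ± 42.7 against 17.6 ± 10.9 CPM (2.32, SE 0.25), and Syt2 at 62.4 ± 80.9 against 9.57 ± 6.32 CPM (2.52). Ifitm3 (3.54) is uncertain for the same reason as Ifitm1.

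The peptides Calca (log2 fold change 1.13, SE 0.17), Tac1 (1.26, SE 0.23), Adcyap1 (1.28), Vip (1.05) and Ucn (1.24) and the CGRP receptor partner Ramp3 (67.0 ± 46.0 against 20.5 ± 12.5 CPM, 1.86) were all higher in members than in P2rx3 cells. Lower were Perp, 1 of 8 genes whose sums did not overlap (0.0755% of those tested, 3.47 to 91.1 CPM in members, 97.3 to 260 CPM in P2rx3 cells, -2.97, SE 0.24, edgeR adjusted p = 3.48e-09), Ctla2a (-2.72), Pdpn (-2.47), Ptn (-2.25) and Kcnd3 (-2.10). Rgs4, a brake on G-protein signals, was at 93.0 ± 76.5 against 329 ± 103 CPM (-2.04, SE 0.21), and the adaptor Sh3kbp1 at 53.8 ± 37.5 against 195 ± 33.6 CPM (-1.99). Gfra2 (-3.04) was lower as well.

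Against neurons with Calca at 1000 CPM or more and P2rx3 under 200 CPM (178 cells, of peptidergic kind by that rule), members had 676 genes higher and 561 lower of 9062 tested (13.7% called, 7.46% higher and 6.19% lower), or 261 and 210 in thinned cells. Calca and P2rx3 chose those cells and are not tested, and 73 of the 95 members had Calca at 1000 CPM or more. These 3 comparisons share the member sums, so each gives its own values and their agreement is no separate evidence. Cldn3 had the largest rise (92.0 ± 86.7 against 2.59 ± 4.77 CPM, log2 fold change 5.60, SE 0.44, edgeR adjusted p = 2.75e-09). Anxa8 followed, and was 1 of 6 genes whose sums did not overlap (0.0662% of those tested). It ran from 118 to 685 CPM in members and from 6.31 to 72.6 CPM in Calca cells (4.61, SE 0.25, adjusted p = 1.18e-12). Slc37a2 (4.54), Emp1 (4.16), Tesc (4.04), Osmr (3.78), Ifitm1 (3.51), Rbp2, a retinol-binding protein (3.05), and Calb2 (4.34) were higher.

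Channels differed between members and Calca cells. Piezo2, the touch channel, was at 121 ± 40.4 against 38.1 ± 25.6 CPM, higher in 16 of 16 batches (log2 fold change 1.80, SE 0.22, edgeR adjusted p = 1.94e-06). Scn10a (1.84), Scn11a (1.57), Scn4b (2.03) and P2rx2 (3.35) were higher, and Asic3 was lower in 16 of 16 batches (39.0 ± 37.6 against 254 ± 103 CPM, -3.10, SE 0.31). Clmp (-3.71), Cd9 (-3.03), the pump regulator Fxyd7 (-2.78), Atp1b1 (-2.75), the cytochrome Cyp1b1 (-2.73), Phactr2 (-2.71) and the choline transporter Slc5a7 (-2.64) were lower. Ifitm2 was lower (-3.02) while Ifitm1 was higher, both uncertain as near copies. The levels of Piezo2 and Scn11a did not set members apart from P2rx3 cells. Their means in P2rx3 cells were 120.6 ± 30.5 and 37.6 ± 29.4 CPM, against 121 ± 40.4 and 29.25 ± 25.1 CPM in members. For Scn10a, Scn4b and P2rx2 the means in P2rx3 cells (67.7, 97.96 and 3.63 CPM) were below those of members (97.1, 151 and 19.4 CPM).

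Of 11 neuropeptides tested here, 4 were higher and 3 lower (63.6% called, beside 13.7% of all genes). Tac1 was at 462 ± 243 against 693 ± 950 CPM and did not pass (log2 fold change -0.26, edgeR adjusted p = 0.5), Gal was lower (-0.89, adjusted p = 0.000457), and Vip (1.37) and Ucn (1.17) were higher. Jak1 was at 549 ± 177 against 226 ± 86.0 CPM (1.29, SE 0.18). Anxa1 (1.19) and Dsp (2.70) were higher than in Calca cells. In P2rx3 cells the mean of Anxa1 was above that of members (691 ± 113 against 371 ± 261 CPM). The mean of Dsp was below it (145 ± 52.2 against 189 ± 92.6 CPM in members).

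**Figure D5:**
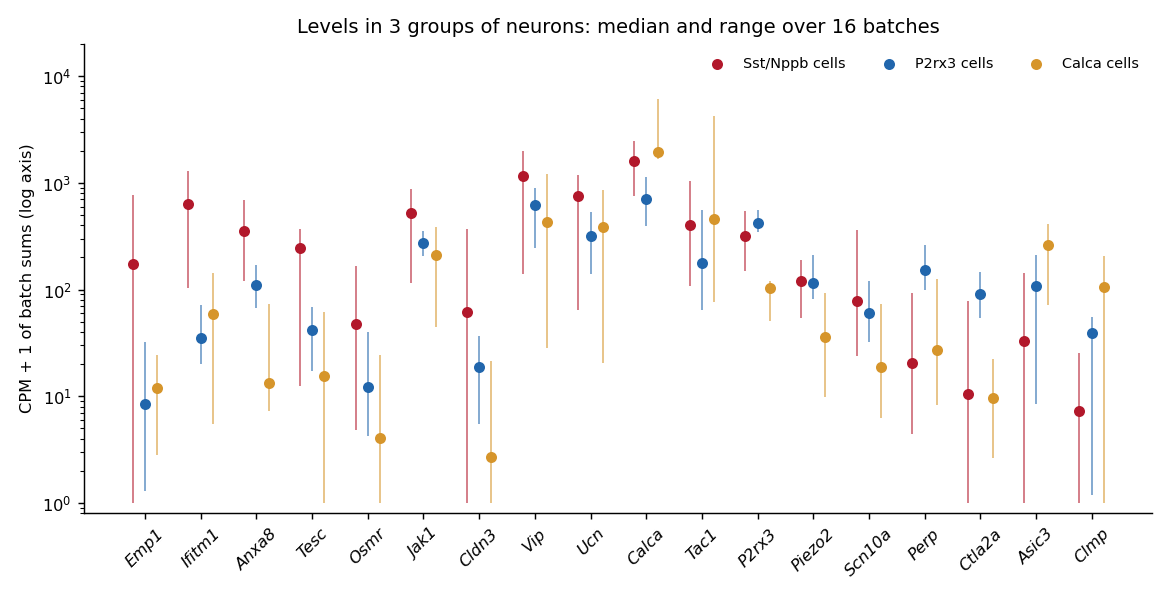
Points are medians over 16 batches of the level of a gene (CPM + 1, log axis) in members (red), P2rx3 cells (blue) and Calca cells (gold), and lines run from the lowest to the highest batch. The medians of members lie above those of both other groups for Emp1, Ifitm1, Anxa8, Tesc, Osmr and Jak1, and below both for Asic3; P2rx3 and Calca set the comparison groups.

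Members in which Nppb was above Sst were set against those in which Sst led, in the 10 batches that held both (23 and 46 cells). The 3 Nppb-led members of batch 32 had no Sst-led member beside them and did not enter. As a sum they had 0 CPM of Emp1 and Calb2, 11.4 CPM of Tesc and 118 CPM of Anxa8. No gene of 7602 passed in edgeR (0% called), with a lowest adjusted p of 0.999, and DESeq2 called 3. An unadjusted edgeR p under 0.05 was found for 285 genes, a smaller share than the 0.05 that arises by chance. With 1 to 6 Nppb-led cells per batch, the tool recovered 61% of simulated 2-fold and 83% of 4-fold changes. The simulated counts had the real sizes of the sums but no differences between batches, and 3 unchanged genes were called. Emp1 was at 222 ± 150 in Nppb-led and 152 ± 89.5 CPM in Sst-led members (n = 10 batches, log2 fold change 0.51, SE 0.36), Anxa8 at 434 ± 142 and 445 ± 319 CPM (0.20, SE 0.24, and 0.37 without batch 23), Tesc at 283 ± 111 and 266 ± 99.9 CPM (0.11, SE 0.28) and Calb2 at 32.0 ± 31.7 and 47.5 ± 41.0 CPM (-0.62, SE 0.51). The mean of Anxa8 in Sst-led members rested in part on batch 23, whose sum was 1 cell at 1283 CPM, and the medians were 384 CPM in Nppb-led and 359 CPM in Sst-led members. For each of the 4 markers the groups overlapped in these 10 batches and the difference was smaller than the spread, which leaves out the Nppb-led members of batch 32.

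The genes whose level across the 830 kept neurons was most like the sum of Sst and Nppb were, in order, Ifitm1 (Pearson r = 0.672 on log2 CPM with 10 CPM added and batch means taken off), Emp1 (0.626), Cyba (0.546), Anxa8 (0.519), Calb2 (0.485), Tesc (0.481), Pgc (0.46), Rtp4 (0.45), Osmr (0.42) and Cst12 (0.419), of 15904 genes with a UMI in at least 20 cells. The cells share libraries and depth, so these are descriptions. The ranking uses the sum that chose the members, so it gives no support to their name.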

How the data were processed

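The deposited files hold raw UMI counts per gene and cell, 1 column per cell. Per the labels' protocols, libraries were made by a modified Smart-seq2 method with an 8 nt cell barcode. Per the submitters' processing notes, UMI-tools, STAR, Subread with featureCounts, SAMtools and the build Rnor 6.0 were used. Versions, filters and the strand setting are not given in the sources used here, so overlapping and antisense genes cannot be told apart. Of 17 samples, batch 21 (40 labelled cells) held the same counts as batch 20 and was left out. The other 16 hold 1040 cells and 32883 gene rows, with 3812280 to 26065847 UMIs each. Doublets were not called, since each neuron was taken up alone. No cell's counts repeated another's, and batches shared 0 cell names.

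CPM are a cell's or a sum's counts per 1000000 of its UMIs. Counts were summed per batch and kind of cell, with at least 2 cells per sum (1 for Nppb-led against Sst-led members), filtered with filterByExpr (minimum count 10), scaled with TMM and tested with edgeR 4.0.16 (quasi-likelihood, batch as a block, Benjamini-Hochberg adjustment over all genes tested) in R 4.3.3. Sst and Nppb stayed out of the adjustment, as their levels chose the members. Batch pairs the 2 sums by the labels, since both come from 1 pooled library. Deviations of both sums of a batch correlated at a median of 0.229 over genes against all others (15 of 16 batches over 0.1). Alternatives were DESeq2 1.42.0, RLE factors, no filter, no block, other thresholds, cell numbers, thinning to 20000 UMIs and leaving out each batch. On simulated counts for the comparison with all other neurons (10836 genes) the test recovered 70% of 2-fold and 95% of 4-fold changes. These counts held no differences between batches, and 8 unchanged genes were called.

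Named genes were the 10 largest changes in each direction among called genes of at least 50 CPM with 1 direction in at least 80% of batches, up to 4 members per list and direction, and a set of itch and nociceptor genes. The text gives a part of them. The members and lists were chosen with earlier results of these data known. Intervals are exact binomial (95%), and limits for 0 allow 3 counts. Both cover counting error only.
One gene among the rule's names is not reported here.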

Additional observations from a re-analysis of the deposited data

Results flagged for a closer look

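In Sst-led members the level of Anxa8 in batch 23 was 1282.79 CPM, measured in 1 cell of 69380 UMIs, the highest of 10 batches and far from the other 9 by Dixon's criterion. Chance alone flags about 1 in 20 groups.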

How the results depend on the processing

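DESeq2 called 2150 genes against all other neurons (825 higher, 1325 lower) and 1815 against P2rx3 cells. With cells thinned to 20000 UMIs the counts were 476 against all others, 378 against P2rx3 cells and 471 against Calca cells, where fewer genes were tested. With no batch block the paired sums gave 1196, 1025 and 1030 genes, and 0 between Nppb-led and Sst-led members. The share of higher calls against all others was 40.7%, and 57.4% with no block, 58.0% in thinned cells and 25.1% with no filter on low counts (452 higher, 1351 lower). Leaving out 1 batch gave 1159 to 1664 genes against all others, 937 to 1334 against P2rx3 cells, 1035 to 1354 against Calca cells and 0 to 0 between Nppb-led and Sst-led members. Between those, DESeq2 called 3 genes, no filter 6 and sums of at least 3 cells 1. Differences that had not passed changed sign for Gap43 (-0.016 at a threshold of 600 CPM and -0.016 thinned) and Atf3 (-5e-05 at 600 CPM) against all others, and between Nppb-led and Sst-led members for Tesc (-0.14 without batch 31, in a range of -0.14 to 0.275 over left-out batches, -0.242 with at least 3 cells) and Emp1 (-0.468 with at least 3 cells). The cause was not tested. Of 2366 values of 89 genes against all others, 2328 kept their direction and side of the threshold, and 814 of 814 did against Calca cells. The settings counted include sums of at least 1 cell, which called the same 1397 genes as the main fit, and fits without 1 batch. These share all or most sums with the main fit, so part of that agreement was set in advance. Sums of 2 to 13 members limit the precision.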
